A study of Mus musculus with 4 samples.

Results

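Chemokine-high alveolar macrophages were followed here: alveolar macrophages that each held 10 or more UMIs (unique molecular identifiers, 1 per captured RNA molecule) of Cxcl2, Ccl3, Ccl4 and Osm together. The name stands for this rule only, since 2 of the cells reached the limit on Osm, a cytokine, without a UMI of the 3 chemokines. A cell counted as an alveolar macrophage if it held 1000 UMIs and 500 genes or more and no more than 10% of its UMIs were mitochondrial. Its UMIs of Chil3, Ear1, Ear2, Fabp1, Lpl and Plet1 also had to reach 0.4% of the total and exceed those of C1qa, C1qb and C1qc, which mark interstitial macrophages. The rule found 113 cells among 19193 alveolar macrophages, of 22258 cells in all. Because UMIs of the 4 genes chose the cells, their levels are given as a description, without a test.

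Macrophages had been sorted from digested lungs of female mice and profiled by droplet single-cell RNA sequencing. The 4 libraries were HER2 early and wildtype early, at 16 weeks, and HER2 late and wildtype late, at 32 weeks, with 1 library per group. HER2 stands for MMTV-HER2 mice, whose HER2 oncogene is driven by a mammary tumour virus promoter active in mammary epithelium, and wildtype for FVB mice. The labels equate the early stage with early lesions and the late one with palpable tumours, without saying how this applies to wildtype mice. The number of mice behind each library and the antibodies used for sorting are not given in the sources used here. Genotype, animals and library therefore cannot be told apart, and no test between conditions was made.

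Alveolar macrophages live in the air spaces, where they clear surfactant and inhaled particles. When a pattern recognition receptor or a cytokine receptor is engaged, NF-kB and AP-1 factors switch on a set of early genes, and the products of some of them (Nfkbia, Tnfaip3, Zfp36, Dusp1) then curb the same response. Cxcl2 attracts neutrophils through the receptor CXCR2. Ccl3 and Ccl4 attract monocytes and lymphocytes. Osm, oncostatin M, is a cytokine of the interleukin 6 family that acts mainly on stromal, epithelial and endothelial cells.

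Cxcl2 (ENSMUSG00000058427) lies on chromosome 5 from 90903871 to 90905938 on the plus strand of GRCm38, the assembly also called mm10. Ccl3 (ENSMUSG00000000982) and Ccl4 (ENSMUSG00000018930) lie close together on chromosome 11, from 83647844 to 83649355 on the minus strand and from 83662584 to 83664683 on the plus strand. Osm (ENSMUSG00000058755) lies on the same chromosome from 4236420 to 4241026 on the plus strand. The promoters of Cxcl2 and Ccl3 are shown because these genes chose the cells, and those of Cxcl1, Il1b and Nfkbia because these rose with them. Each line holds the 250 bases before the RefSeq start (GRCm38.p6), 5′ to 3′ on the gene's strand. Capitals mark an NF-kB motif (GGG, NN, then TTTCC without a gap, on either strand, N being any base) in Cxcl2, Cxcl1 and Nfkbia and a TATA box (TATAAA on the gene's strand) in Il1b.
Cxcl2, chr5:90903649-90903898, plus strand: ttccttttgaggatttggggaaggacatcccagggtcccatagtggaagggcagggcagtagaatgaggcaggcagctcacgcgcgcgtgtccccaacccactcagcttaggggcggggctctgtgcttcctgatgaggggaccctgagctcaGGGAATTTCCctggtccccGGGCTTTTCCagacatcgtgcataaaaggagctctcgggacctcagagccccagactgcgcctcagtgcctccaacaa
Ccl3, chr11:83649379-83649628, minus strand: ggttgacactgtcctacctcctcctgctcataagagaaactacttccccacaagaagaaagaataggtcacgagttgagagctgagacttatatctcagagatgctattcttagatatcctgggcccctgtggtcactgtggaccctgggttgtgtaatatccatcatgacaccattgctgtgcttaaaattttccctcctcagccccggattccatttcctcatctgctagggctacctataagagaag
Cxcl1, chr5:90890995-90891244, plus strand: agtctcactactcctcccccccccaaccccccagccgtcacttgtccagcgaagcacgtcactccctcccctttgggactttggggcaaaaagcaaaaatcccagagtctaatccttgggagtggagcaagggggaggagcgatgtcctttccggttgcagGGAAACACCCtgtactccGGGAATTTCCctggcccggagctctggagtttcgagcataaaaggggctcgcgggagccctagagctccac
Il1b, chr2:129371140-129371389, minus strand: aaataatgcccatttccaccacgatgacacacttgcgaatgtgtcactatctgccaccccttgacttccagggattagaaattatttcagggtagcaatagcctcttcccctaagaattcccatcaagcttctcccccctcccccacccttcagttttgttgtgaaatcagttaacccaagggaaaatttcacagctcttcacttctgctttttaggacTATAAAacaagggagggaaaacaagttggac
Nfkbia, chr12:55492648-55492897, minus strand: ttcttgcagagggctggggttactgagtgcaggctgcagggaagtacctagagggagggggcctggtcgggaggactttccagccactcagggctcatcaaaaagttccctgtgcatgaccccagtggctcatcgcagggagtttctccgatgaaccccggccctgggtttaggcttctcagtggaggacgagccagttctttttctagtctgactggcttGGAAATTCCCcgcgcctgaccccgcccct

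The Cxcl2 promoter held the NF-kB letters from 97 to 88 and from 78 to 69 bases before the start. Cxcl1, its neighbour on chromosome 5, held them from 89 to 80, on the opposite strand, and from 71 to 62 bases before the start. Nfkbia held them from 29 to 20 bases before its start, also on the opposite strand, and the Ccl3 window held none of the motifs searched. The letters were settled after the Cxcl2 promoter had been read, so its matches carry no weight of their own. Osm and Ccl4 had no entry in the promoter table.

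The 113 cells came to 14 of 4413 alveolar macrophages in HER2 early and 28 of 4833 in wildtype early. They came to 41 of 5702 in HER2 late and 30 of 4245 in wildtype late. The share was 0.317% in HER2 early (95% exact Clopper-Pearson interval 0.174 to 0.532) and 0.579% in wildtype early (0.385 to 0.836). It was 0.719% in HER2 late (0.516 to 0.974) and 0.707% in wildtype late (0.477 to 1.01). The ratio of HER2 to wildtype was 0.548 early (0.266 to 1.08) and 1.02 late (0.62 to 1.69), so neither interval excluded equal shares. Intervals cover counting error only.

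Depth enters a rule that counts UMIs. Chemokine-high cells had median totals of 6062, 6435.5, 7578 and 6642 UMIs in HER2 early, wildtype early, HER2 late and wildtype late, against 3728, 4309, 4369.5 and 4752 in all alveolar macrophages. With every cell thinned to 2000 UMIs and the limit set at 5, the shares were 0.306 and 0.424% in HER2 and wildtype early, and 0.522 and 0.515% in HER2 and wildtype late. This left out 490, 357, 340 and 171 shallower cells in the order of the libraries above. The early ratio was then 0.721 (0.319 to 1.56). It was 0.947 (0.31 to 2.89) without cells holding 2 or more UMIs of other cell types' markers, while under 3 other settings the early interval lay below 1. These were alveolar genes at 0.8% of UMIs or more (0.423, 0.19 to 0.877), no cells over 25% Gm42418 (0.453, 0.203 to 0.944) and no cells with 3 or more cell cycle UMIs (0.431, 0.175 to 0.974).

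Among the 4 genes, Cxcl2 gave most of the UMIs that placed cells in the group. It supplied 63.9% of them, against 13.3% from Ccl4, 12.8% from Ccl3 and 10.1% from Osm. Cxcl2 was detected in 95 of the 113 cells, Ccl3 in 67, Osm in 43 and Ccl4 in 31. On Cxcl2 alone 67 cells would have reached 10 UMIs, on Ccl4 alone 13, on Osm alone 6 and on Ccl3 alone 3. The median was 14 UMIs of the 4 genes per cell and the highest 51.

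**Figure D1:**
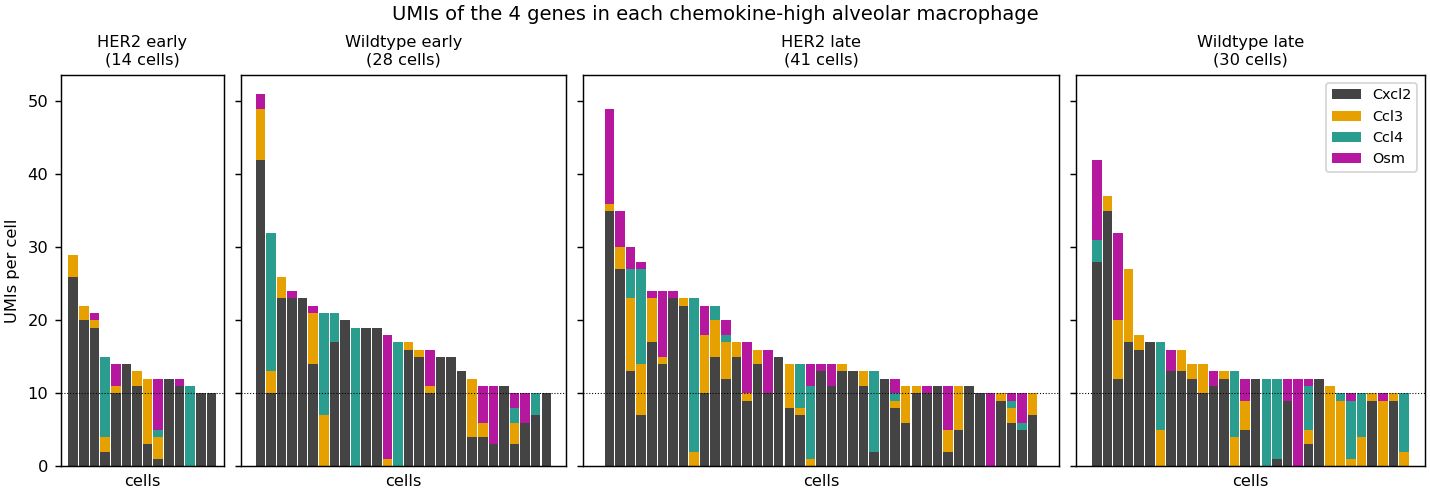
UMIs of Cxcl2, Ccl3, Ccl4 and Osm (y axis, stacked colours) in each of the 113 chemokine-high cells (bars, sorted within each library); the dotted line marks the limit of 10. Most bars are mainly Cxcl2, and bars made mainly of Ccl4 or Osm occur in all 4 libraries.

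Cxcl2 stood at 1644 CPM (the usual UMI level scaled to depth, over all UMIs of the summed cells) in chemokine-high cells of HER2 early and 1696 in wildtype early, and at 1354 in HER2 late and 1152 in wildtype late. Ccl3 stood at 254 CPM in HER2 early and 218 in wildtype early, and at 263 in HER2 late and 382 in wildtype late. Ccl4 had 254 CPM in HER2 early and 387 in wildtype early, and 215 in HER2 late and 342 in wildtype late. At both stages Ccl4 was lower in the HER2 library, where 23 and 71 UMIs stood behind it, against 78 and 76 in wildtype. Osm had 132 CPM in HER2 early and 223 in wildtype early, and 251 in HER2 late and 220 in wildtype late, so the order of the genotypes was not the same at both stages.

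Detection of the 4 genes was uneven from cell to cell. Of the chemokine-high cells 29 held UMIs of only 1 of the 4 genes, 53 of 2, 23 of 3 and 8 of all 4. Cxcl2 had the most UMIs in 80 cells, Ccl4 in 18, Osm in 7 and Ccl3 in 6, with 2 ties. Of 31 cells with Ccl4, 21 also held Ccl3, which was found in 67 of the 113 chemokine-high cells. Of the 18 cells without Cxcl2, 16 held Ccl3 or Ccl4. The rule fixes this for every such cell that did not reach the limit on Osm alone, as 2 did. Across the 113 cells, the UMIs of Cxcl2 and Ccl4 had a Spearman rho of -0.51, a description only, since the limit on their sum pushes such values down.

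Since UMIs of the 4 genes chose the cells, the part of each gene's RNA that they held is a description only. The chemokine-high cells held 43.9% of the Cxcl2 UMIs of all alveolar macrophages and 35.3% of the Ccl4 UMIs. They held 12.4% of the Ccl3 and 10.5% of the Osm UMIs, and the rest lay in cells outside the group. At the limit itself, 31 cells had 10 or 11 UMIs of the 4 genes and 49 alveolar macrophages lay just outside with 8 or 9. Free RNA, read from barcodes with 10 to 100 UMIs, held the 4 genes at 104, 116, 269 and 280 CPM in HER2 early, wildtype early, HER2 late and wildtype late, while all alveolar macrophages held 65.7, 73.8, 94.3 and 77.4 CPM.

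To ask what else set these cells apart, each was matched within its library to 3 alveolar macrophages of nearest UMI total without a UMI of the 4 genes, 339 cells in all. Median totals were then 6062 UMIs in chemokine-high and 6042 in matched cells of HER2 early, 6435.5 and 6418.5 in wildtype early, 7578 and 7558 in HER2 late, and 6642 and 6629.5 in wildtype late. UMIs were summed per library and kind of cell, and edgeR's quasi-likelihood test with library as a block was run on 4053 genes, without the 4 genes of the rule. A p-value here sets the within-library difference against a spread borrowed largely from other genes (median prior of 52.1 degrees of freedom, residual 3). A small one does not by itself show that the 4 libraries agreed closely. Genes tested had to reach a minimum count in either kind of cell, so a gene high only in chemokine-high cells entered through them. Counts and medians over the tested genes of a list therefore describe those genes and say nothing of the list's other members.

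Cxcl1, Il1b and Tnf had the largest fitted rises among the genes ranked. In all, 113 genes were higher (2.79% of those tested, a count that happens to equal that of the cells) and 17 were lower (0.419%), at a Benjamini-Hochberg adjusted p under 0.05. Of the higher genes 102 were higher in 4 of 4 libraries and the other 11 in 3 of 4, and 57 differed over 2-fold. Of the lower genes 16 were lower in every library and 3 differed over 2-fold. The median log2 fold change over all genes tested was -0.01. DESeq2 called 52 higher and 1 lower, and edgeR without the library block 58 and 1. Without wildtype late 68 were higher and 4 lower, and without wildtype early 78 and 10.

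**Figure D2:**
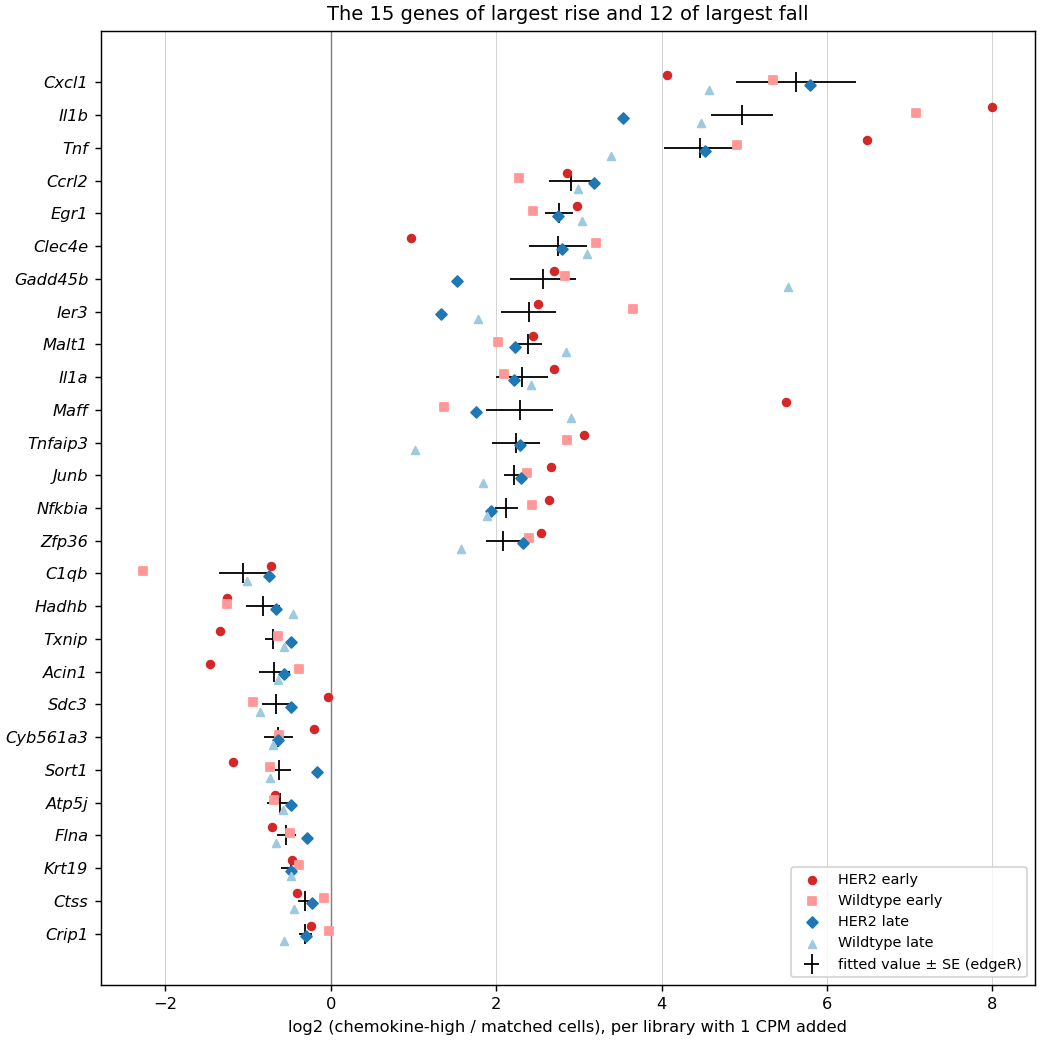
Log2 ratio of chemokine-high to matched cells (x axis) for the 15 genes with the largest rise and the 12 with the largest fall; symbols are the 4 libraries, with 1 CPM added to each level, and black bars the fitted value ± SE of edgeR. Il1b and Tnf vary widely between libraries, whereas Egr1, Malt1, Junb and Nfkbia cluster, and of the fitted falls only that of C1qb exceeds 1 on the log2 scale.

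Il1b, Tnf, Il1a and Il1rn were the higher genes of the inflammatory cytokine list. Il1b, a cytokine that drives fever and neutrophil recruitment, had 254 CPM in chemokine-high cells of HER2 early, 358 of wildtype early, 139 of HER2 late and 122 of wildtype late, against 0, 1.66, 11.1 and 4.51 CPM in matched cells of the same libraries. Every chemokine-high sum lay above every matched one (log2 fold change 4.97 ± 0.38 SE, edgeR adjusted p = 8.32e-09). Tnf, tumour necrosis factor, had 88.5, 129, 45.4 and 104 CPM in chemokine-high cells in the same order, against 0, 3.33, 1.01 and 9.01 CPM. Here too the groups did not overlap (log2 4.46 ± 0.44, edgeR adjusted p = 1.06e-11). Il1b UMIs were found in 42 of the 113 cells and Tnf UMIs in 30, so most chemokine-high cells showed neither. When comparison cells were allowed up to 2 UMIs of the 4 genes, Il1b kept a log2 of 4.66 but its adjusted p was 0.122.

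Il1a, a cytokine released by stressed and dying cells, stood at 77.4, 74.6, 78.7 and 76.6 CPM in chemokine-high cells of HER2 early, wildtype early, HER2 late and wildtype late, against 11.1, 16.6, 16.1 and 13.5 CPM in matched cells. The libraries hardly differed within either kind of cell (log2 2.31 ± 0.31, edgeR adjusted p = 1.74e-07). Il1rn, the antagonist of the interleukin 1 receptor, rose less, with 133, 219, 164 and 171 against 70.0, 78.2, 86.8 and 105 CPM (log2 0.97 ± 0.18, adjusted p = 0.00013). Of the 15 inflammatory cytokines listed 6 were tested, these 4 were higher and none lower. Il18 gave log2 0.13 (0.699) and Tgfb1 -0.15 (0.769). Il1b, Tnf and Il1a were so low in matched cells that they reached the count minimum through the chemokine-high cells. The same held, among other genes, for Ccrl2, Tnfaip3, Clec4e, Gadd45b, Ier3 and Maff, with 39, 47, 28, 28, 38 and 29 UMIs over all matched cells. In a fit with no such minimum Il1b, Tnf and Il1a had log2 values of 4.93, 4.43 and 2.27 and also passed. Of all 113 higher genes 90 passed there.

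Among other chemokines, Cxcl1, a neutrophil attractant acting through the same receptor as Cxcl2, had the largest fitted rise of the genes ranked. It had 77.4, 39.8, 54.5 and 58.6 CPM in chemokine-high cells of the libraries in the order above, against 3.69, 0, 0 and 1.502 CPM. All 4 libraries had the same direction, with 46 UMIs in chemokine-high and 2 in matched cells, a pooled ratio of 69.0 with an exact counting interval of 18.04 to 587. The gene reached the count minimum through the chemokine-high cells. Its fitted log2 of 5.62 ± 0.73 (edgeR adjusted p = 4.86e-08) was 5.57 without that minimum. Ccl9 rose too (log2 1.21 ± 0.19, adjusted p = 0.00115), although in HER2 early it had 166 CPM in chemokine-high and 203 in matched cells. Ccl6, at 3137 to 5487 CPM in chemokine-high cells, gave log2 -0.14 (adjusted p = 0.886), and Cxcl16 gave 0.74 (0.267). Of the 14 chemokines listed beside the 4 of the rule, 4 were tested, 2 were higher and none lower. Summed, the 14 stood at 4624, 5379, 6287 and 3867 CPM in chemokine-high cells of HER2 early, wildtype early, HER2 late and wildtype late, against 4308, 4686, 5117 and 5761 CPM in matched cells, so the sum was the lower one in wildtype late.

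Cxcl3, another ligand of CXCR2, was too sparse for the test. It had 59 UMIs in 11 chemokine-high cells and 0 in matched cells, at least 59.0-fold higher with the floor set at 3 counts over the matched cells. A single cell of HER2 late held 35 of those UMIs, and without that library the bound was 15.98-fold. Ereg, a ligand of the epidermal growth factor receptor family, had 18 UMIs in 6 chemokine-high cells and 0 in matched cells, at least 17.99-fold higher by the same floor. Of these UMIs 13 were in wildtype late, 10 of them in 1 cell, and without that library the bound was 4.996-fold. Inhba, the activin A subunit, had 37 against 2 UMIs, but 24 of the 37 lay in 1 cell of HER2 early. Without that library it had 12 against 2 UMIs, a ratio of 17.99 (4.005 to 165).

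Of 30 NF-kB regulators and targets listed, 16 were tested, 14 were higher and none lower, with a median log2 of 1.07. Nfkbia, the inhibitor of NF-kB that NF-kB itself induces, had 509, 582, 478 and 446 CPM in chemokine-high cells of HER2 early, wildtype early, HER2 late and wildtype late, against 81.1, 106, 124 and 120 CPM in matched cells. The groups lay far apart in each library (log2 2.12 ± 0.14, edgeR adjusted p = 5.01e-18). Tnfaip3, the ubiquitin editing enzyme A20 that restrains NF-kB, had 99.6, 139, 87.8 and 49.6 CPM against 11.1, 18.3, 17.2 and 24.0 CPM. Its smallest difference was in wildtype late (log2 2.24 ± 0.29, adjusted p = 5.98e-08).

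Malt1, a protease and scaffold that leads to NF-kB activation, rose to 365, 254, 303 and 482 CPM, against 66.3, 61.5, 63.6 and 66.1 CPM in matched cells (log2 2.39 ± 0.17, edgeR adjusted p = 2.2e-17). The matched levels were almost the same in all 4 libraries. Clec4e, the receptor Mincle for mycobacterial and damage-associated glycolipids, gave log2 2.74 ± 0.35, Gadd45b, a stress sensor, 2.57 ± 0.40, and Ier3, an early response gene that affects cell survival, 2.39 ± 0.33, with edgeR adjusted p of 3.94e-08, 4.09e-06 and 3.59e-07. The NF-kB subunit genes Nfkb1 (1.02) and Rel (1.11), the adhesion molecule Icam1 (0.96) and the surface protein Cd83 (1.41) were higher too. Bcl2a1b and Sod2, also called, share 3′ sequence with other genes and are uncertain.

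Immediate early genes, which are transcribed within minutes of a stimulus, rose in 12 of the 16 tested of 22 listed, with none lower and a median log2 of 1.16. Junb, an AP-1 subunit, had 796, 651, 790 and 636 CPM in chemokine-high cells of HER2 early, wildtype early, HER2 late and wildtype late, against 125, 125, 159 and 177 CPM in matched cells. It was found in 99 of the 113 cells and the groups were far apart (log2 2.22 ± 0.13, edgeR adjusted p = 9.29e-21). Egr1, a zinc finger factor, had 210, 248.5, 433 and 352 CPM against 25.8, 44.9, 63.6 and 42.1 CPM (log2 2.76 ± 0.17, adjusted p = 5.54e-19). Both late libraries had the higher chemokine-high values. Maff (log2 2.28), Atf3 (2.07), Egr2 (1.397), Fos (1.29), Btg2 (1.22) and Jun (1.20) were also higher. Fosb rose with log2 0.94 but stood at 76.6 CPM in chemokine-high and 87.1 in matched cells of wildtype late.

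Factors that shut the response down were among the higher genes. Zfp36, tristetraprolin, which binds AU-rich elements and speeds decay of Tnf and chemokine mRNAs, had 155, 144, 197 and 212 CPM in chemokine-high cells of HER2 early, wildtype early, HER2 late and wildtype late, against 25.8, 26.6, 38.3 and 70.6 CPM (log2 2.09 ± 0.21, edgeR adjusted p = 3e-11). The difference was smallest in wildtype late. Dusp1, a phosphatase of MAP kinases, rose to 277, 756, 609 and 897 CPM, against 166, 281, 128 and 242 CPM (log2 1.71 ± 0.14, adjusted p = 6.35e-11), and within both kinds of cell it was lower in each HER2 library. Zc3h12a, the ribonuclease Regnase-1, rose with log2 1.39, in 3 of 4 libraries. Of 8 phosphatases and decay factors tested these 3 were higher and none lower, with a median log2 of 0.38.

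**Figure D3:**
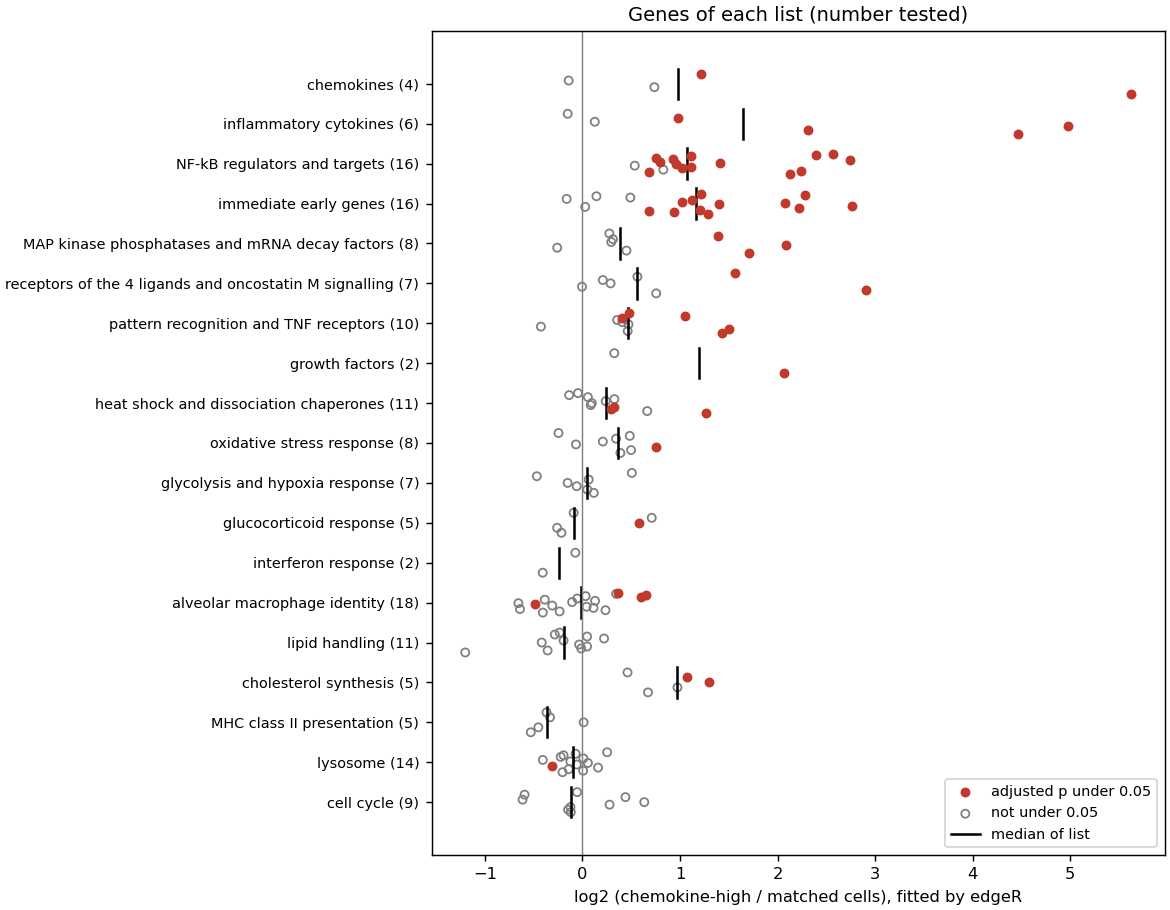
Fitted log2 ratio of chemokine-high to matched cells (x axis) for the tested genes of each list (rows, number tested in brackets); filled points have an edgeR adjusted p under 0.05 and the black line is the list's median. The filled points lie to the right in the cytokine, NF-kB and immediate early rows, whereas the lipid, MHC class II and cell cycle rows hold open points only. Over all genes tested 2.79% were higher and 0.419% lower.

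Of 10 pattern recognition and TNF receptors tested 5 were higher and none lower, with a median log2 of 0.47. Tlr2, which senses bacterial lipoproteins, had 564, 413, 312 and 627 CPM in chemokine-high cells of HER2 early, wildtype early, HER2 late and wildtype late, against 192, 143, 128 and 222 CPM in matched cells, with no overlap (log2 1.43 ± 0.13, edgeR adjusted p = 1.2e-12). Cd14, the lipopolysaccharide co-receptor, rose (log2 1.51) though not in HER2 early, where it had 77.4 against 81.1 CPM. Trem1 (1.05), which amplifies inflammatory signals, Clec4n (0.47), the fungal receptor Dectin-2, and Fpr2 (0.41), a formyl peptide receptor, were higher. Tlr4, the lipopolysaccharide receptor, gave log2 0.46 (0.448), and Fpr1, another formyl peptide receptor, 0.35 (0.301).

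Ccrl2, an atypical receptor that binds chemerin without signalling, had 166, 84.5, 154 and 90.2 CPM, against 22.1, 16.6, 16.1 and 10.5 CPM, with both HER2 libraries above both wildtype ones in chemokine-high cells (log2 2.91 ± 0.27, edgeR adjusted p = 1.53e-12). Pim1, a kinase induced by cytokines that signal through STAT factors, rose (log2 1.57 ± 0.14, adjusted p = 1.2e-12). Ccr1, a receptor of Ccl3, gave log2 0.76 (adjusted p = 0.109). Of 7 genes of the ligands' receptors and oncostatin M signalling tested, Ccrl2 and Pim1 were higher and none lower, and the median log2 was 0.56. Cxcr2 and Osmr, the receptors of Cxcl2 and oncostatin M, each had 0 UMIs in chemokine-high and 1 UMI in matched cells.

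Most alveolar identity genes did not pass the test. Of 18 identity genes tested 3 were higher, 1 was lower and the median log2 was -0.01, equal to that of all genes. Over all genes tested 2.79% were higher and 0.419% lower, so calls were not rarer among identity genes. The receptor subunit Csf2rb, through which GM-CSF maintains these cells, was higher, with 343, 229, 321 and 311 CPM in chemokine-high cells of HER2 early, wildtype early, HER2 late and wildtype late, against 217, 190, 166 and 189 CPM (log2 0.65 ± 0.14, edgeR adjusted p = 0.00169). Its groups did not overlap. The scavenger receptor Olr1 (log2 0.60) and the transcription factor Cebpb (0.36) were the other higher genes. Krt19, a keratin, was the lower one, with 365, 343, 376 and 225 against 505, 447, 526 and 314 CPM (log2 -0.48 ± 0.12, adjusted p = 0.00848). Siglecf gave log2 -0.41 (0.47) and Pparg 0.24 (0.74). Lpl was called higher (0.34), but it is 1 of the 6 genes that chose both kinds of cell.

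None of 11 lipid handling, 5 MHC class II, 7 glycolysis and hypoxia, 9 cell cycle or 2 interferon genes passed the test, with median log2 of -0.19, -0.37, 0.05, -0.12 and -0.24. Over all genes tested 2.79% were higher and 0.419% lower, so no call in lists of this size is near the general share. Cd74, the MHC class II invariant chain, gave log2 -0.37 (edgeR adjusted p = 0.854) and the apolipoprotein Apoe -1.20 (0.738). Of 5 cholesterol synthesis genes Msmo1 (log2 1.29), a sterol oxidase, and Insig1 (1.07), which retains the sterol sensor, were higher, with a median of 0.97. Of 8 oxidative stress genes the thioredoxin reductase Txnrd1 (0.75) was higher, of 5 glucocorticoid response genes the kinase Sgk1 (0.58), and of 2 growth factors the stress cytokine Gdf15 (2.07), with none lower and medians of 0.37, -0.09 and 1.20. Of 14 lysosome genes the protease Ctss was lower (-0.31) and none was higher, with a median of -0.10.

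Of 11 heat shock and dissociation chaperones Hspa1a (log2 1.27 ± 0.24, edgeR adjusted p = 0.00019), Hspa5 (0.32) and Hspa8 (0.29) were higher and none lower, and the median was 0.24. Hspa1a had 210, 109, 115 and 18.03 CPM in chemokine-high cells of HER2 early, wildtype early, HER2 late and wildtype late, against 88.5, 54.9, 39.3 and 6.01 CPM. Its close paralog Hspa1b gave 0.66 (0.0777), and Hspa8 shares 3′ sequence with several gene copies, so these 3 genes are uncertain. Both kinds of cell in a library had gone through the same collagenase digestion, and the part of digestion in these differences was not tested.

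The lower genes changed by less. Txnip, an inhibitor of thioredoxin and of glucose uptake, had 387, 661, 609 and 757 CPM in chemokine-high cells of HER2 early, wildtype early, HER2 late and wildtype late, against 980, 1028, 848 and 1119 CPM, without overlap (log2 -0.70 ± 0.10, edgeR adjusted p = 1.43e-06). The cytoskeletal cross-linker Flna (-0.54), the sorting receptor Sort1 (-0.62), the ATP synthase subunit Atp5j (-0.62), the fatty acid oxidation subunit Hadhb (-0.82) and the heparan sulfate proteoglycan Sdc3 (-0.66) also fell. So did Acin1 (-0.68), Cyb561a3 (-0.63) and Crip1 (-0.31). C1qb (-1.06) and C1qa (-1.16) were called lower, but C1q genes entered the choice of both kinds of cell, and 3 chemokine-high cells held 78.6% of C1qb UMIs. C1qb turned to log2 0.75 with a limit of 5 UMIs, and most calls of lower genes were lost under at least 1 other setting.

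Cell quality differed slightly between the 2 kinds of cell. Mitochondrial UMIs had medians of 4.70, 4.51, 3.76 and 4.59% in chemokine-high cells of HER2 early, wildtype early, HER2 late and wildtype late, against 5.21, 5.08, 4.44 and 5.09% in matched cells. Gm42418, a gene model overlapping ribosomal RNA sequence, took medians of 9.99, 10.0, 10.1 and 12.5% against 14.8, 12.4, 13.8 and 13.4%, and was called lower (log2 -0.27). The part of these differences in the results was not tested. Without cells over 25% Gm42418 the calls were 109 higher and 16 lower, of 3824 genes tested. With at most 5% mitochondrial UMIs they were 68 and 11, of 2785 genes tested. Neither cut matches the 2 kinds of cell on these measures.

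Markers of other cell types were set beside these results. Neutrophil markers summed to 106 to 144 CPM in chemokine-high and 62.7 to 117 in matched cells, with 8 of 12 genes at 0 UMIs in chemokine-high cells, among them S100a9, Ly6g and Retnlg. Mmp8 was called higher (log2 0.92 ± 0.28, edgeR adjusted p = 0.0483), while S100a8 gave -0.25 (0.842). Monocyte markers summed to 99.6 to 203 CPM against 140 to 161, with 5 of 11 at 0, including Ly6c2 and Plac8. Nr4a1, which is also on the immediate early list, gave 47 of their 143 UMIs in chemokine-high cells and 15 of 376 in matched cells. Interstitial macrophage markers summed to 133 to 203 against 107 to 268 CPM, with 3 of 11 at 0. Epithelial markers summed to 188 to 323 against 182 to 268 CPM, mostly from Epcam, with 5 of 10 at 0. Dendritic, T, B, NK, mast, endothelial and fibroblast markers reached at most 14.9 CPM in chemokine-high cells of any library. In matched cells endothelial markers reached 276 CPM, with 166 UMIs in 2 cells of wildtype early and 127 in 2 cells of HER2 late. Dendritic markers reached 36.9, B cell markers 31.3, fibroblast markers 16.6, T cell markers 15.02, mast cell markers 7.06 and NK markers 3.004 CPM in matched cells. For the next count, monocyte and interstitial macrophage markers were left aside. Epcam, which was kept in it, was found in 73 of the 113 chemokine-high cells and in 209 matched cells. Cells with 2 or more UMIs of the remaining lists made up 42.9, 71.4, 56.1 and 63.3% of chemokine-high cells in HER2 early, wildtype early, HER2 late and wildtype late, against 57.1, 72.6, 65.0 and 56.7% of matched cells. Without them 1656 genes could be tested and 38 were higher, of which 36 were among the 113.

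The neighbouring levels of the 4 genes showed whether the limit of 10 cut a continuous range. Pooled over libraries, Nfkbia stood at 110, 149.9, 249.6, 469.8 and 583 CPM in cells with 0, 1 to 2, 3 to 9, 10 to 19 and 20 or more UMIs of the 4 genes. Junb stood at 160, 283, 495, 675 and 846 CPM, and Ccrl2 at 10.8, 23.7, 54.9, 107 and 167. Both therefore had intermediate levels in cells outside the group. Tnf ran through 2.56, 7.74, 17.7, 67.8 and 139 CPM, Il1b through 7.48, 28.1, 63.1, 188 and 234 CPM and Cxcl1 through 0.393, 1.35, 5.98, 48.9 and 71.7 CPM. Dusp1 was highest at 10 to 19 UMIs, with 215, 355, 548, 724 and 564 CPM, and Cd74 at 3 to 9, with 602, 941, 1451, 947 and 674 CPM. Median totals of these cells were 4106, 5209, 5711, 7041 and 6302 UMIs, so depth moved with the bins. On both sides of the limit, Nfkbia had 389 CPM in cells with 8 to 9 UMIs and 339 in those with 10 to 11, and Il1b 118 and 75.4.

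**Figure D4:**
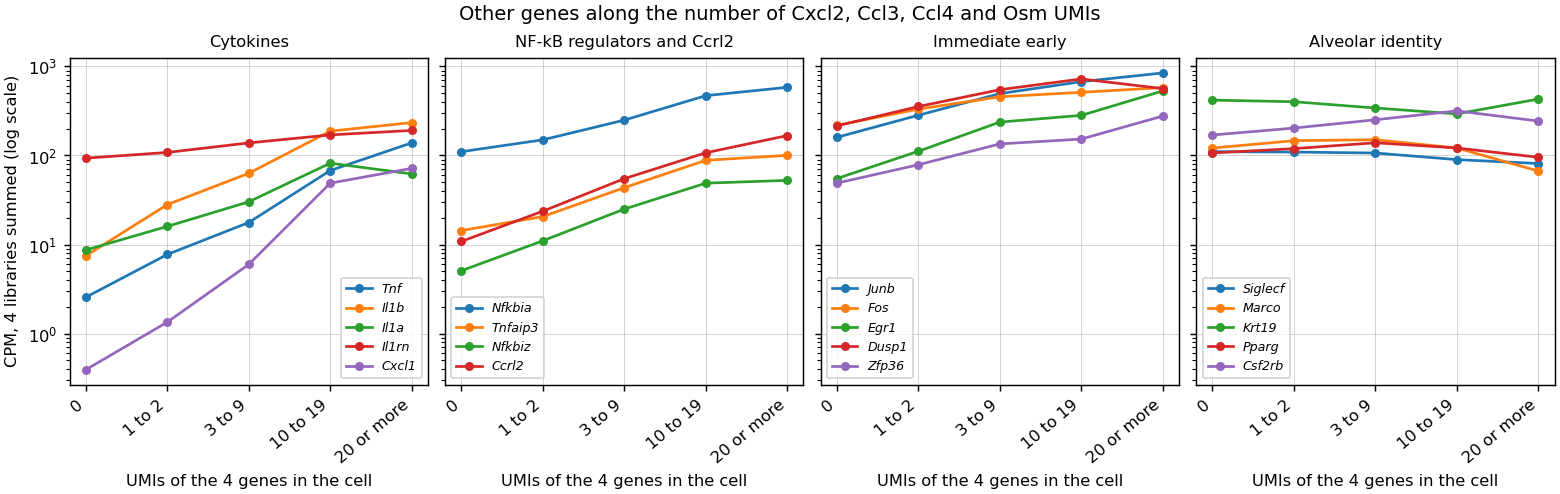
CPM summed over 4 libraries (y axis, log scale) in alveolar macrophages grouped by their UMIs of Cxcl2, Ccl3, Ccl4 and Osm (x axis); lines are genes. Cytokine, NF-kB and immediate early genes are higher in bins with more UMIs, apart from Il1a and Dusp1 in the last bin, while Siglecf and Pparg stay between 81.2 and 139 CPM.

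Cells differed by which of the 4 genes led. This split was made after values were seen and is a description. Junb stood at 210 CPM in the 18 cells where Ccl4 had the most UMIs, against 818 in the 80 where Cxcl2 did. Nfkbia stood at 170 against 630 CPM, Il1b at 56.6 against 263 and Tnf at 16.2 against 103. For Nfkbia the cells led by Ccl4 had 258, 170, 249.9 and 109.8 CPM in HER2 early, wildtype early, HER2 late and wildtype late, below the 733, 786, 523 and 661 CPM of cells led by Cxcl2. Tlr2 differed less, at 372 against 475 CPM. Of 93 genes set side by side, 31 had the higher pooled level in cells led by Ccl4, among them Atf3 (169.8 against 125 CPM), Il1rn (226 against 172) and Gdf15 (113 against 92.6). For Il1rn this came from wildtype early alone, with 612 against 156 CPM. Egr1 stood at 307 against 342 CPM, and in HER2 late the 4 cells led by Ccl4 were higher, with 857 against 351 CPM. The groups led by Ccl4 held 2, 4, 4 and 8 cells per library, with a median of 6173.5 UMIs, against 6643.5 in cells led by Cxcl2.

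**Figure D5:**
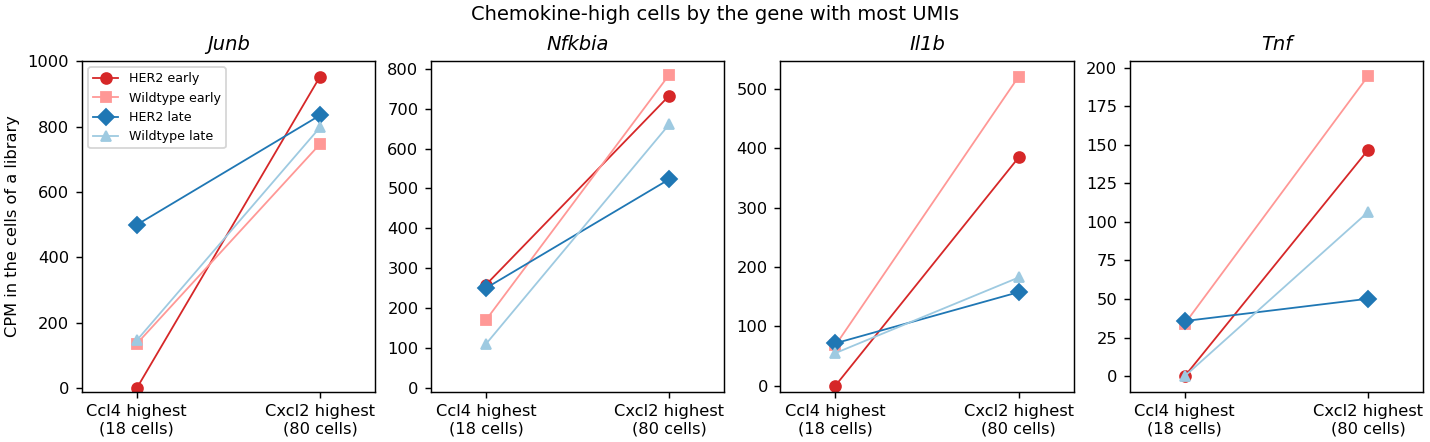
CPM of Junb, Nfkbia, Il1b and Tnf (y axes) in chemokine-high cells in which Ccl4 (left) or Cxcl2 (right) had the most UMIs; each line is 1 library. All 4 lines rise to the right in each panel, and the left points rest on 2 to 8 cells each.

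Between genotypes, chemokine-high cells showed differences in level for a sizeable share of genes, from few cells. Early, of 1627 genes that reached 100 CPM in 1 of the libraries or both, 243 were at least 1.5-fold higher in HER2 (14.9%) and 270 lower (16.6%). Among the genes higher in chemokine-high cells, 12 of 91 were higher (13.2%) and 17 lower (18.7%). Late, 208 of 1669 genes were higher (12.5%) and 229 lower (13.7%), against 13 (13.7%) and 19 (20%) of 95 of those genes. These shares carry no replicate check.

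Among response genes, Dusp1 had 277 CPM in chemokine-high cells of HER2 early and 756 of wildtype early (log2 -1.45, counting interval -2.12 to -0.83). Late it had 609 CPM in HER2 and 897 in wildtype (-0.56, -0.85 to -0.27). Matched cells gave -0.76 and -0.92, so this order was also present outside the group. Tlr2 gave 0.45 early (-0.08 to 0.97) and -1.01 late (-1.39 to -0.63), with -0.79 late in matched cells. Nfkbia gave -0.19 early (-0.72 to 0.31) and 0.10 late (-0.27 to 0.48), and Il1b -0.49 (-1.24 to 0.20) and 0.19 (-0.52 to 0.94), so neither was told apart at this depth.

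By the ranking on interval bounds, late HER2 cells had higher Gapdh, a glycolytic enzyme (472 against 99.2 CPM), Hspa1a (115 against 18.03), the eosinophil-associated ribonuclease Ear1 (3083 against 1181), the apolipoprotein Apoc1 (179 against 40.6), Wfdc10 (112 against 22.5) and Fosb (251 against 76.6). Gapdh, Hspa1a, Ear1, Apoc1 and Wfdc10 were also higher in matched cells of HER2 late, by log2 1.504, 2.71, 1.02, 1.04 and 0.70. Fosb was not, with log2 -0.02 in matched cells against 1.71 (0.95 to 2.56) in chemokine-high cells. Outside the ranking, Jun gave 1.54 (0.86 to 2.28) and Ier2 1.33 (0.61 to 2.12) late, with 0.34 and 0.46 in matched cells. Klf4 gave 1.13 (0.16 to 2.20) and Btg2 1.05 (0.59 to 1.53), with -0.06 and 0.16 in matched cells. For Atf3, Ier5, Fosl2 and Jund, also immediate early genes, the late interval held 0. Early, Fosb had 55.3 CPM in HER2 and 124 in wildtype chemokine-high cells (log2 -1.17, -2.91 to 0.24). Ear1 is 1 of the genes that chose the alveolar macrophages. Lower in HER2 late were the macrophage elastase Mmp12 (151 against 532 CPM), the viral RNA sensor Ifih1 (21.2 against 171), S100a6 (42.4 against 180), Bhlhe41 (69.6 against 234) and Vps13b (27.3 against 113). Matched cells gave log2 -2.33 for Mmp12, -0.63 for Ifih1, -0.74 for S100a6, -0.22 for Bhlhe41 and -0.51 for Vps13b. Over the 113 cells, 3 cells held 60.7% of Ifih1, 58.4% of S100a6 and 43.8% of Mmp12 UMIs. For Bhlhe41 and Vps13b they held 15.9 and 17.3%. Of the genes higher in HER2 late, 3 cells held 47.5% of Apoc1, 41.7% of Wfdc10 and 41.0% of Hspa1a UMIs. For Fosb, Ear1 and Gapdh they held 26.9, 12.9 and 10.5%.

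Early differences rested on 14 HER2 cells. Histone genes Hist1h1b, Hist1h2ae and Hist1h1e and the replication gene Rrm2 were higher in HER2 early, but all Hist1h1b UMIs of the group lay in 3 cells. Mrpl17, a mitochondrial ribosomal protein, had 210 CPM in HER2 early and 29.8 in wildtype early (log2 2.82, 1.44 to 4.43), against -0.85 in matched cells. These levels rest on 19 and 6 UMIs. Mrpl17 was found in 47 chemokine-high cells of the 4 libraries together, and its spread within HER2 early was not measured. S100a6, Fn1 and Mmp12 had 0 UMIs in chemokine-high cells of HER2 early, against 47, 34 and 24 UMIs in wildtype early. Matched cells gave log2 -0.29, -0.90 and 0.11. Over all 113 cells, 3 cells held 58.4, 55.6 and 43.8% of the UMIs of these genes, and S100a6 and Fn1 were each found in 15 cells. The lymphocyte and myeloid surface antigen Cd52 (44.2 against 229 CPM), the sterol enzyme Cyp51 (11.1 against 129) and the cell cycle gene Ube2c (22.1 against 179) were lower. For Ube2c, 3 cells held 93.7% of the group's UMIs.

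Promoters of genes that rose were searched for the same motifs. Of 113 higher genes 90 had an entry among 32851 RefSeq promoters. The NF-kB letters were found in 7 of the 90 (7.78%), namely Ccl9, Cxcl1, Il1rn, Nfkbia, Rel, Tnfaip3 and Tuba1c, against 1.68% of 3276 tested genes and 1.41% of all promoters. AP-1 letters (TGANTCA, both strands) were found in 14.4% of the 90, 5.43% of tested genes and 6.75% of all promoters. TATAAA on the gene's strand was found in 17.8, 4.88 and 7.59%, and the cyclic AMP response element TGACGTCA in 5.56, 3.14 and 1.55%. These are matches of letters in 250 bases, not sites of binding, and motifs can overlap.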

How the data were processed

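The authors deposited raw UMI count matrices that list all barcodes and 32285 genes. These counts were the only values used, and 2 deposited tables of average UMIs were left out. The submitters' processing notes name Cell Ranger 5.0.1 and mm10. Cell Ranger 4 is named per the file headers. Libraries held 28786682 (HER2 early), 34858960 (wildtype early), 39228655 (HER2 late) and 30587008 UMIs (wildtype late). Groups were taken from sample titles, because the strain entry names both genotypes for every sample.

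CPM of a gene is its share of the UMIs of the summed cells, scaled in the usual way, without the 4 genes except for their own levels. No doublet caller was run. Sums went into edgeR 4.0.16 (TMM, robust quasi-likelihood, filterByExpr at 10 counts, library as block, Benjamini-Hochberg), with DESeq2 1.42.0 as an alternative. The same library gives both kinds of cell, which sets the pairing. On simulated counts for this comparison over 4053 genes, 47 of 50 genes raised 2-fold, 37 of 50 lowered 2-fold and 2 of 3853 unchanged genes were called. The simulation gave every gene the same spread and applied no count minimum. It therefore does not measure false calls among genes carried by few cells or entering through the chemokine-high cells. Cell barcodes shared by 2 libraries numbered 1 to 13 per pair, and at most 1 of them in a pair was a chemokine-high cell.

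The cells and lists were chosen with earlier results of these data known. The text names the 15 genes with the largest and the 12 with the smallest log2 among called genes of 1 direction in 4 libraries with at least 50 CPM, without unnamed models, ribosomal or mitochondrial genes, up to 4 genes per list (list totals are given for all), and 6 and 6 genes per HER2 comparison, of which 1 is not reported here. Others were named after their values were seen. Copies were sought with BLAST 2.17.0. Promoters and gene positions came from RefSeq and GENCODE tables of GRCm38.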

Additional observations from a re-analysis of the deposited data

Results flagged for a closer look

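Over the 27 ranked genes, 1 library stood apart from the other 3 in the log2 ratio of chemokine-high to matched cells for Cyb561a3 and Krt19, at a rate at which chance marks about 1 in 20 genes. For Cyb561a3 the gap to the nearest library was 0.842 of the whole range, with -0.20 in HER2 early. For Krt19 it was 0.831 of the range, with -0.38 in wildtype early.

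The share of chemokine-high cells in HER2 over wildtype was 0.548 early and 1.02 late, on opposite sides of 1, but the difference between the stages was not tested and each interval holds 1.

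Cells with C1q genes above the alveolar genes were not part of the comparisons. Of these, 5 of 434 in HER2 early (1.15%), 8 of 291 in wildtype early (2.75%) and 11 of 634 in HER2 late (1.74%) held 10 or more UMIs of the 4 genes, more than the 3 cells that a count of 0 allows. In wildtype late 3 of 598 did (0.502%).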

How the results depend on the processing

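Against 113 higher and 17 lower genes, the counts were 217 and 54 with a limit of 5 UMIs, 18 and 2 with 20 UMIs, and 35 and 8 with the 4 genes at 0.25% of UMIs. They were 68 and 11 with at most 5% mitochondrial UMIs, 38 and 7 without cells holding other types' markers, 66 and 9 with 1 matched cell each, and 33 and 10 with cells thinned to 2000 UMIs. DESeq2 gave 52 and 1, the fit without the library as replicate block 58 and 1. Lower genes numbered 114 without matching and 36 without a filter on low counts. Leaving out 1 library gave 68 to 135 higher and 4 to 25 lower genes, with 68 and 4 without wildtype late and 10 lower without wildtype early. Several settings test far fewer genes (890 at 20 UMIs, 1097 after thinning, against 4053); beyond that the cause was not tested. A limit of 10 UMIs of Cxcl2 alone, a setting chosen after seeing the data, gave 89 and 21. The late share ratio was 2.23 with a limit of 20 UMIs. C1qb reversed to log2 0.75 at 5 UMIs, 0.0021 at 5% mitochondrial UMIs and 0.44 without matching. The 15 ranked higher genes passed in 281 of 284 values (exceptions Il1b with comparison cells of up to 2 UMIs, Gadd45b without wildtype early and Maff without wildtype late), the 12 lower genes in 149 of 265. With 14 to 41 cells per library, depth limits the sparse genes most.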

Other observations

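Of the 113 higher genes 59 belonged to no list, and the genes given here were picked after their values were seen. Ifrd1, a transcriptional co-regulator, had 177, 209, 282 and 225 CPM in chemokine-high cells of HER2 early, wildtype early, HER2 late and wildtype late, against 55.3, 46.6, 72.6 and 52.6 CPM in matched cells (log2 1.97, edgeR adjusted p = 1.2e-12). Its groups did not overlap. Nlrp3, the sensor of an inflammasome that processes interleukin 1 beta, had 111, 59.7, 142 and 85.6 against 25.8, 29.9, 30.3 and 34.5 CPM (1.68, adjusted p = 2.17e-06). Trib1, a pseudokinase that marks C/EBP proteins for degradation, gave log2 1.71, Pde4b, a phosphodiesterase of cyclic AMP, 1.38, Hcar2, a receptor for niacin and ketone bodies, 1.28, and Cdkn1a, the cell cycle inhibitor p21, 1.14.

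The long non-coding RNA Neat1 rose to 708, 522, 793 and 744 CPM, against 280, 278, 332 and 393 CPM in matched cells (log2 1.06, edgeR adjusted p = 6.35e-11). The ferritin heavy chain gene Fth1, which stores iron, gave log2 0.44 (adjusted p = 2.05e-05) in 4 of 4 libraries. The histone demethylase Kdm6b (1.11) and the DNA demethylase Tet2 (1.03) were also higher in every library.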
